A study of Mus musculus with 14 samples.

Results

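The genes described here were chosen as genes of macrophages and of the monocytes that give rise to them. Whether each of them marks these cells in the tumours was not tested. They are 39 named genes, each taken from the probe set annotated with that gene symbol alone. All 39 had such a probe set among the 22180 genes of the first array design. On the second design 38 of them, all except Ly6c2, were found among 19938 genes. The tumours were grown from B16-F10, a pigmented melanoma line, in C57BL/6 mice, an immune-competent inbred strain. In the study, cells were implanted in both flanks, the right flank received 20 Gy on day 8, and mice were dosed on days 5, 8 and 11 with 9H10, an antibody that blocks CTLA4. Unirradiated tumours that withstood this treatment or came back gave the resistant cell lines Res 499 and Res 177, and tumours regrown from these lines were compared with tumours of sensitive control cells. The first design held 4 control tumours (replicates 2 to 5), 7 Res 499 tumours (replicates 1 to 7) and 1 Res 177 tumour (replicate 2). The second design held 1 control and 1 Res 177 tumour (replicate 1 of each). Per the labels all groups share the parent line, and Res 499 and Res 177 are each 1 isolated line, so tumours of a group are repeats of that line. Replicate numbers only name the tumours. Whether the arrayed tumours were themselves treated, or grew in separate mice, is not stated in the labels. The p-values therefore rest on the spread among the arrayed tumours alone, which may be technical. Levels are log2 expression values made by the authors with RMA, and a difference of 1 is a 2-fold difference.

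Macrophages in tumours derive largely from blood monocytes that enter through the chemokine receptor CCR2 and survive on signals from the CSF1 receptor. The transcription factor PU.1, encoded by Spi1, sets up the lineage and binds purine-rich sites near many myeloid genes. Once in the tissue the cells bind antibody through Fc receptors, clear dead cells through scavenger receptors and make the complement protein C1q. They can also express inducible nitric oxide synthase (Nos2) or arginase 1 (Arg1), enzymes that compete for arginine.

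The 39 genes lay higher in Res 499 than in control tumours on average, but the Res 499 tumours were far apart from one another. In the comparison of 7 Res 499 with 4 control tumours, 38 of 39 log2 changes were above 0, while 51.7% of all 16635 genes tested were. Their median change was 0.84, against 0.01 over all genes tested. None of the 39 passed an adjusted p of 0.05 (limma, Benjamini-Hochberg over all genes tested), at which 0.355% of all genes were called, and the smallest adjusted p among them was 0.187. At an unadjusted p under 0.05, 16 of the 39 were higher and 0 lower, against 6.68% and 6.29% of all genes. The SD among Res 499 tumours exceeded that among controls for 38 of 39 genes, against 60.2% of all genes, with a median ratio of 2.97 against 1.17. In RNA of whole tumours, fewer cells of a type and less RNA per cell cannot be told apart.

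**Figure D1:**
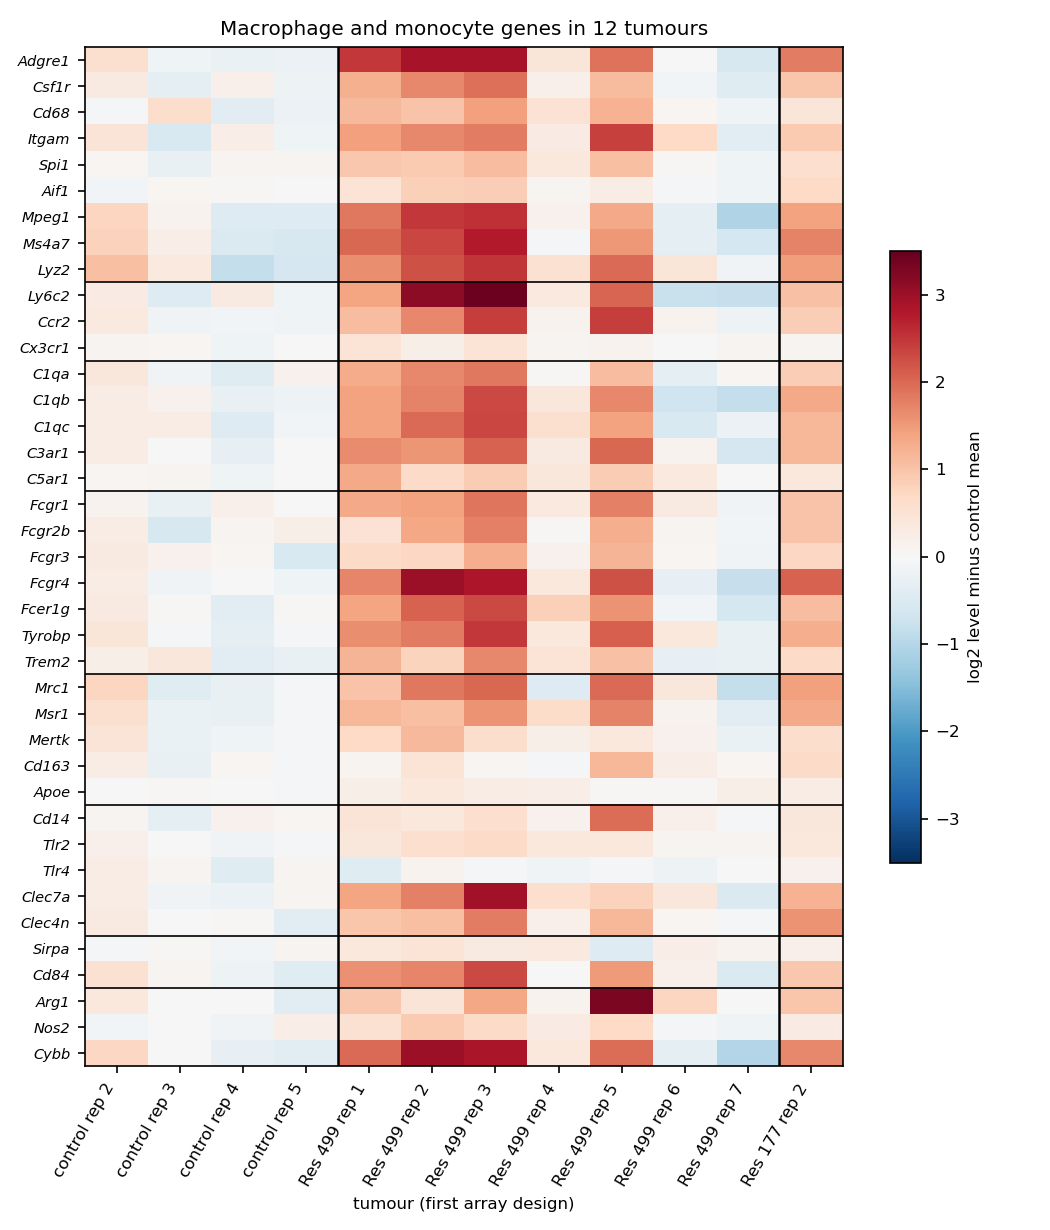
Each row is a gene and each column a tumour of the first array design; colour gives the log2 level minus the mean of the 4 control tumours, with genes ordered by role (horizontal lines) and groups divided by vertical lines. Res 499 replicates 1, 2, 3 and 5 and the Res 177 tumour are red over most rows, while replicates 4, 6 and 7 stay near the controls or below them.

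The same Res 499 tumours were high for most of the genes. Replicates 1, 2, 3 and 5 were the 4 highest Res 499 tumours for 34 of 39 genes, an order that 5.58% of all genes tested had and that was picked out after the values were seen. Replicate 1 exceeded every control tumour for 37 genes (25.9% of all genes), replicate 2 for 38 (19.6%), replicate 3 for 37 (20.6%) and replicate 5 for 36 (31.9%). Replicate 4 did so for 18 (25.1%), replicate 6 for 8 (20.4%) and replicate 7 for 2 (22.4%). Replicates 1, 2 and 3 were below every control for 0 genes (19.3%, 27.7% and 21.1% of all genes), replicates 4 and 5 for 1 each (19.1% and 25.3%) and replicate 6 for 4 (23.1%). Replicate 7 was below every control for 17 genes (21.6% of all genes) and was the lowest of the 12 tumours for 17, against 5.85%. Replicate 3 was the highest of the 12 tumours for 24 genes, against 5.28%. The mean difference of the 39 genes from the control mean was 1.10, 1.41, 1.68 and 1.33 in replicates 1, 2, 3 and 5, and 0.26, 0.03 and -0.30 in replicates 4, 6 and 7. Control tumours ran from -0.15 to 0.32, the highest being control replicate 2. The medians of all genes tested lay between -0.03 and 0.03 in the same 12 tumours.

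**Figure D2:**
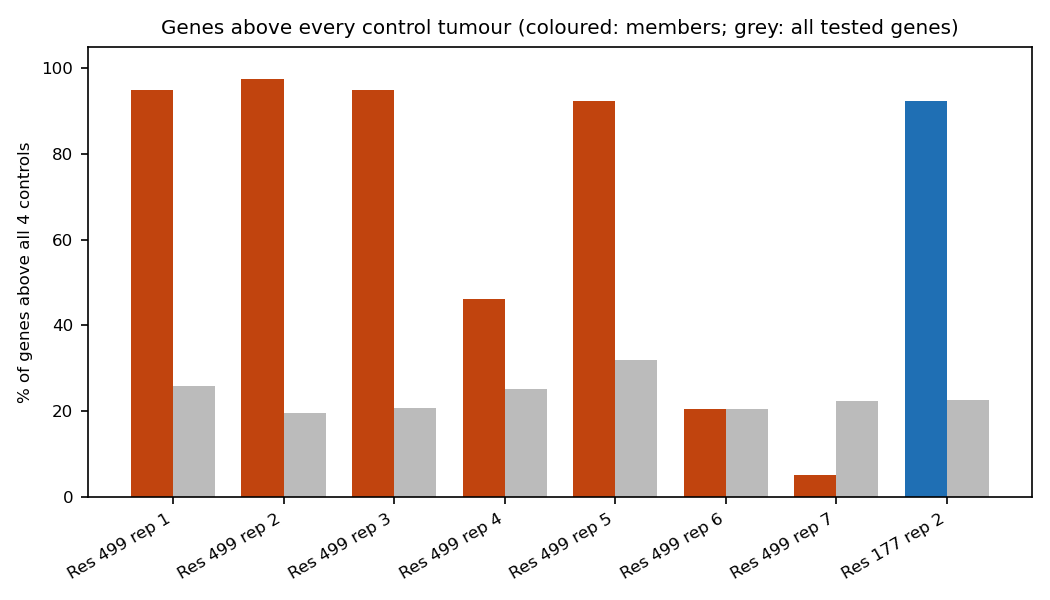
Bars give the percentage of genes whose level in a tumour exceeded all 4 control tumours, coloured for the 39 macrophage and monocyte genes and grey for all 16635 genes tested. The coloured bars stand for 36 to 38 genes in Res 499 replicates 1, 2, 3 and 5 and in the Res 177 tumour, and for 18, 8 and 2 genes in replicates 4, 6 and 7.

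Among the genes of lineage identity, Adgre1, which encodes a surface protein long used to mark mouse macrophages, had the largest average difference of all 39. Its levels were 7.28, 6.57, 6.50 and 6.52 in the controls, and in Res 499 the lowest was 6.15, the median 8.61 and the highest 9.60. The groups overlapped: replicates 1, 2, 3 and 5 were above every control, replicates 4 and 6 were inside the control range and replicate 7 was below it. The difference of 1.43 (SE 0.64) was a 2.69-fold difference that did not pass the test (limma adjusted p = 0.370). Csf1r, the receptor on which macrophage survival depends, was at 7.14, 6.47, 6.99 and 6.64 in controls and ran from 6.40 through a median of 7.92 to 8.75 in Res 499. It showed the same arrangement, with 4 Res 499 tumours above all controls and replicate 7 below them, and a difference of 0.81 (SE 0.41, adjusted p = 0.436). Lyz2, the lysozyme of macrophages and neutrophils, was at 9.70, 8.97, 7.81 and 8.05 in controls and ran from 8.52 through 10.26 to 11.13. Its controls were spread widely, and the difference was 1.31 (SE 0.52, adjusted p = 0.306). The nearly identical Lyz1 differed by 1.54 (SE 0.53, adjusted p = 0.234), and how far the probe sets of this pair cross-react was not tested.

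Spi1, the gene of PU.1, was at 6.29, 5.98, 6.33 and 6.33 in controls and ran from 6.08 through 7.15 to 7.32 in Res 499. Replicates 1, 2, 3, 4 and 5 were above all controls, replicates 6 and 7 were not, and the difference was 0.61 (SE 0.23, adjusted p = 0.289). The other identity genes were the lysosomal membrane protein Cd68 at 0.75, the integrin subunit Itgam (CD11b) at 1.13, the pore-forming Mpeg1 at 1.0, the membrane protein gene Ms4a7 at 1.09 and Aif1, the actin-binding protein IBA1, at 0.33. All 9 genes of this kind had positive differences, with a median of 1.0.

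Promoter sequences of members are shown because PU.1, encoded by the member Spi1, is a factor known to bind myeloid promoters. Regulation of these genes by PU.1 was not tested. RefSeq promoter windows (GRCm38.p6) were at hand for 27 of the 39 genes, and the 250 bases before each start were searched on both strands. The PU.1 core GAGGAA was found for 13 of 27 members (48.1%) and for 25.9% of all 27025 genes in the table. The C/EBP pattern TTNNGNAA was found for 14 (51.9%) against 40.3%, and an interferon-stimulated response element pattern, GAAA repeated after a gap of any 2 bases, for 3 (11.1%) against 3.46%. A match is a run of letters, not a bound site. The 100 bases before the start of 6 genes are printed, chosen after the search to include genes with a core and 1 without. Capitals mark a match to the PU.1 core or to the response element pattern, on either strand. In the window of Fcgr4 a C/EBP match, left in lower case where it stands alone, overlaps the response element match.
C1qb, chr4:136886201-136886300, minus strand: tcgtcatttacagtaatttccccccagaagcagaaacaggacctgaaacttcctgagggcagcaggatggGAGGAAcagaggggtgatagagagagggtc
Fcgr1, chr3:96293970-96294069, minus strand: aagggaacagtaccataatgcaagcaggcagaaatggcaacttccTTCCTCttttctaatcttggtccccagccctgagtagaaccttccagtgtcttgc
Fcgr4, chr1:171018826-171018925, plus strand: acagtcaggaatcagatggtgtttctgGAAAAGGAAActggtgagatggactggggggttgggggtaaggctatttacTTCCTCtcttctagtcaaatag
Trem2, chr17:48346301-48346400, plus strand: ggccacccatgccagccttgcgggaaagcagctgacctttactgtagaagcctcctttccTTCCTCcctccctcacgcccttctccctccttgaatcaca
Itgam, chr7:128062540-128062639, plus strand: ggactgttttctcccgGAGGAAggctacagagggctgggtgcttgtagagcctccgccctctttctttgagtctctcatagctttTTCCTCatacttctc
Cybb, chrX:9469325-9469424, minus strand: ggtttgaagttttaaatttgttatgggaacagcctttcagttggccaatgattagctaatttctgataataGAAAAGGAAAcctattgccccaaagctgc
In these stretches Itgam holds 2 PU.1 cores, C1qb, Fcgr1, Fcgr4 and Trem2 hold 1 each, and Cybb holds 0. Fcgr4 and Cybb hold 1 match each to the response element pattern. Cybb differed by 1.25 and Itgam by 1.13 between Res 499 and control tumours.

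Of the monocyte genes, Ly6c2 and Ccr2 were spread over several log2 units among Res 499 tumours and Cx3cr1 was not. Ly6c2, a surface protein of inflammatory monocytes, was at 5.15, 4.41, 5.16 and 4.70 in controls and ran from 4.05 through a median of 6.23 to 8.27 in Res 499. Replicates 2 and 3 stood highest, at 7.98 and 8.27, and replicates 6 and 7 were below every control, so that the difference of 1.24 had an SE of 0.76 (adjusted p = 0.536). Ly6c2 has the near-identical neighbour Ly6c1, so its value is uncertain. Its control mean of 4.86 was also under the level of 4.94 used to leave out dim genes. The gene passed that filter only through its higher resistant tumours, and the order among its low values is uncertain. Ccr2, the receptor for the monocyte chemokine CCL2, was at 5.76, 5.29, 5.33 and 5.29 in controls and ran from 5.24 through 6.49 to 7.83. Replicates 3 and 5 were highest, at 7.82 and 7.83, and the difference was 1.09 (SE 0.49, adjusted p = 0.370). Cx3cr1, the fractalkine receptor of patrolling monocytes and resident macrophages, differed by only 0.20 (SE 0.10, adjusted p = 0.426), from 6.56 to 6.82 in controls and from 6.71 to 7.19 in Res 499.

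**Figure D3:**
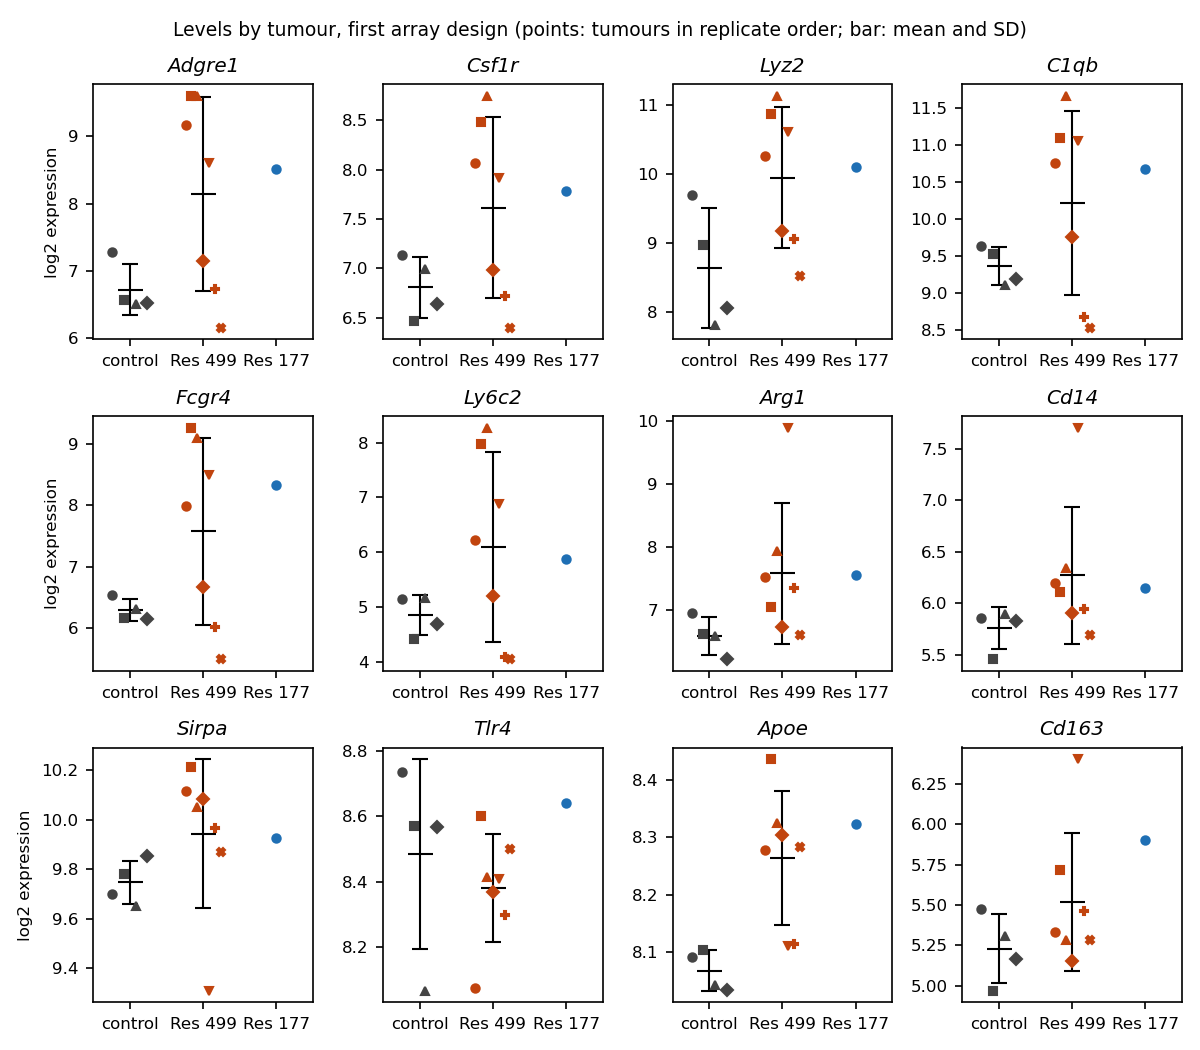
Points give the log2 level of 12 genes in each tumour of the first design, with the marker shape giving the order of replicates within a group, and the bar gives the mean and SD of the control (n = 4) and Res 499 (n = 7) tumours. Adgre1, Csf1r, C1qb and Fcgr4 split the Res 499 tumours widely, Arg1, Cd14 and Cd163 are highest in Res 499 replicate 5, and Sirpa is lowest there.

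C1qa, C1qb and C1qc encode the A, B and C chains of C1q, the first component of the classical complement pathway, and stand side by side on chromosome 4. C1qb was at 9.63, 9.52, 9.10 and 9.19 in controls and ran from 8.52 through 10.76 to 11.66 in Res 499. Replicates 1 to 5 were above every control and replicates 6 and 7 below every control. The differences of the A, B and C chain genes were 0.82 (SE 0.40), 0.86 (SE 0.55) and 0.99 (SE 0.48), with adjusted p-values of 0.412, 0.559 and 0.412. The anaphylatoxin receptors C3ar1 and C5ar1, which sense complement fragments, differed by 1.01 (SE 0.47, adjusted p = 0.383) and 0.65 (SE 0.20, adjusted p = 0.196). C5ar1 was at 5.75, 5.78, 5.52 and 5.68 in controls and from 5.66 through 6.35 to 7.01 in Res 499. All Res 499 tumours except replicate 7 were above every control for this gene.

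The Fc receptors bind the constant part of antibodies, and Fcer1g and Tyrobp (DAP12) encode the adaptors that carry their signals and those of TREM2. Fcgr4 was at 6.54, 6.16, 6.31 and 6.14 in controls and ran from 5.48 through 8.00 to 9.28 in Res 499. Its SD was 0.18 in controls and 1.53 in Res 499, a ratio of 8.31, the largest of the 39 genes. The difference was 1.29 (SE 0.67, adjusted p = 0.446), with replicates 1 to 5 above every control and replicates 6 and 7 below every control. Fcgr1, the high-affinity receptor, differed by 0.98 (SE 0.35, adjusted p = 0.253) and had 6 of 7 Res 499 tumours above all controls. The inhibitory Fcgr2b differed by 0.71 (SE 0.35) and the activating Fcgr3 by 0.56 (SE 0.27); these genes stand on either side of Fcgr4 on chromosome 1, and whether the probe sets of this family share signal was not tested. Tyrobp was at 8.03, 7.56, 7.26 and 7.56 in controls and ran from 7.34 through 9.22 to 10.09, with replicates 1, 2, 3 and 5 above every control (difference 1.21, SE 0.47, adjusted p = 0.289). Fcer1g differed by 1.06 (SE 0.48, adjusted p = 0.377) and Trem2, a lipid-sensing receptor, by 0.66 (SE 0.34, adjusted p = 0.450).

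Genes of scavenging and lipid handling had a median difference of 0.43 over 5 genes. Mrc1, the mannose receptor CD206, was at 8.34, 7.16, 7.34 and 7.54 in controls and ran from 6.75 through 8.58 to 9.61 in Res 499, with replicates 4 and 7 below every control (difference 0.84, SE 0.54, adjusted p = 0.559). The scavenger receptor Msr1 differed by 0.84 (SE 0.36, adjusted p = 0.343) and Mertk, a receptor for dying cells, by 0.43 (SE 0.22, adjusted p = 0.446). Cd163, the haemoglobin scavenger receptor, was at 5.48, 4.97, 5.31 and 5.17 in controls and from 5.15 through 5.34 to 6.41 in Res 499. Only replicates 2 and 5 were above every control for Cd163. Apoe, which carries lipids, was the single gene for which all 7 Res 499 tumours lay above all controls, as 1.23% of all genes tested did; 0 of the 39 had all 7 below all controls, against 1.15%. Its controls were at 8.09, 8.10, 8.04 and 8.03 and its Res 499 tumours ran from 8.11 through 8.28 to 8.44. The lowest Res 499 tumour thus lay just above the highest control, and the difference was small, at 0.20 (SE 0.07, adjusted p = 0.251). On the second design Apoe was far brighter, at 13.08 in the control and 13.06 in the Res 177 tumour, with no rise. How well the first-design probe set reports Apoe was not tested.

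Pattern recognition receptors were mixed. Tlr2, which senses bacterial lipopeptides, was at 6.91, 6.71, 6.61 and 6.68 in controls and from 6.83 through 7.11 to 7.40 in Res 499. With 5 of 7 tumours above every control and little spread, it had the smallest adjusted p of the 39 genes, 0.187 (difference 0.37, SE 0.11). Tlr4, the lipopolysaccharide receptor, was the only gene with a negative difference, at -0.10 (SE 0.12, adjusted p = 0.790, 95% interval -0.38 to 0.17), and 0 of 7 tumours were above every control. The beta-glucan receptor Clec7a was at 6.34, 5.94, 5.87 and 6.16 in controls and from 5.57 through 6.87 to 9.01 in Res 499, where replicate 3 stood highest (difference 1.05, SE 0.49, adjusted p = 0.387). Clec4n (dectin-2) differed by 0.74 (SE 0.32, adjusted p = 0.351) and the lipopolysaccharide co-receptor Cd14 by 0.51 (SE 0.30, adjusted p = 0.513). Of the 2 remaining receptors, Cd84, which binds its own kind on other cells, differed by 0.97 (SE 0.48), and Sirpa, the inhibitory receptor for CD47, by 0.20 (SE 0.14, adjusted p = 0.608).

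Of the effector enzymes, Cybb, the membrane subunit of the phagocyte NADPH oxidase, was at 7.81, 7.07, 6.81 and 6.69 in controls and ran from 6.07 through 9.04 to 10.08 in Res 499. Replicates 1, 2, 3 and 5 were above every control, replicates 4 and 6 inside the control range and replicate 7 below it (difference 1.25, SE 0.71, adjusted p = 0.493). Arg1 was at 6.96, 6.62, 6.59 and 6.23 in controls and from 6.61 through 7.36 to 9.90 in Res 499 (difference 0.99, SE 0.50, adjusted p = 0.425). Nos2 was at 5.98, 6.07, 5.96 and 6.31 in controls and from 5.92 through 6.60 to 6.99 in Res 499 (difference 0.41, SE 0.19, adjusted p = 0.385). The pair did not peak in the same tumour: Arg1 was highest in replicate 5 and Nos2 in replicate 2.

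Res 499 replicate 5 stood apart from the other macrophage-high tumours in a few genes. Relative to the control mean, Arg1 was at 3.30 in replicate 5, against 0.94, 0.46 and 1.34 in replicates 1, 2 and 3. Cd14 was at 1.95 in replicate 5 against 0.44, 0.36 and 0.58, and Cd163 at 1.18 against 0.11, 0.49 and 0.06. Adgre1, by contrast, was at 1.89 in replicate 5 against 2.46, 2.88 and 2.89, and Sirpa was at -0.44, the lowest of the 12 tumours. Sirpa was the 1 gene of the 39 that was lowest in replicate 5, against 16.0% of all genes tested. Replicate 5 was the highest of the 12 tumours for 6 of the 39 genes (Itgam, Ccr2, Msr1, Cd163, Cd14 and Arg1), against 16.9% of all genes tested, a share near that background. Its neutrophil marker mean, 0.52 above the control mean, was also the highest of the 12 tumours, and the part of neutrophils in these values was not tested.

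On the first design, the lone Res 177 tumour lay inside the Res 499 range by its mean over the 39 genes, 0.94 above the control mean. All 39 genes were above the control mean, against 53.3% of all genes, with a median difference of 0.96 against 0.01 over all genes, and 36 of 39 were above every control against 22.5% of all genes, and 0 below every control against 17.5%. By limma 0 of 39 passed the test, where 0.210% of all genes did, and 1 (Clec4n, higher) had an unadjusted p under 0.05. Of all genes 4.08% passed that threshold, 2.56% higher and 1.52% lower. The SE here assumes that the lone tumour varies as the others do. Fcgr4 differed by 2.05 (SE 1.19), Adgre1 by 1.80 (SE 1.14), Ms4a7 by 1.73 (SE 1.14), Clec4n by 1.57 (SE 0.57), Arg1 by 0.96 (SE 0.89) and Tlr4 by 0.16 (SE 0.22). In the direct test of Res 499 against Res 177, 0 of 39 genes passed by limma, against 0.234% of all genes, and 0 had an unadjusted p under 0.05, against 2.93% (0.998% higher and 1.94% lower). Their differences ran from -0.84 to 0.31, and 14 of 39 were above 0 against 47.5% of all genes. The comparisons of Res 499 with control and of Res 177 with control use the same 4 control tumours. This Res 177 tumour also carried keratinocyte RNA. All 6 tested keratinocyte markers were above the control mean (median difference 2.37), among them Krt14, Krt1, Krt10, Dsp and Dsc3. Dsc3 differed by 3.25 (SE 0.14), from a control mean of 4.71 that was itself under the dim-gene level of 4.94. The source of this RNA and its part in the macrophage values were not tested. With all 8 resistant tumours set against the 4 controls, 38 of 39 genes were above 0 against 52.4% of all genes, and 0 passed the test by limma, against 0.613%. At an unadjusted p under 0.05, 22 were higher and 0 lower in that comparison, against 7.11% and 6.26%.

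**Figure D4:**
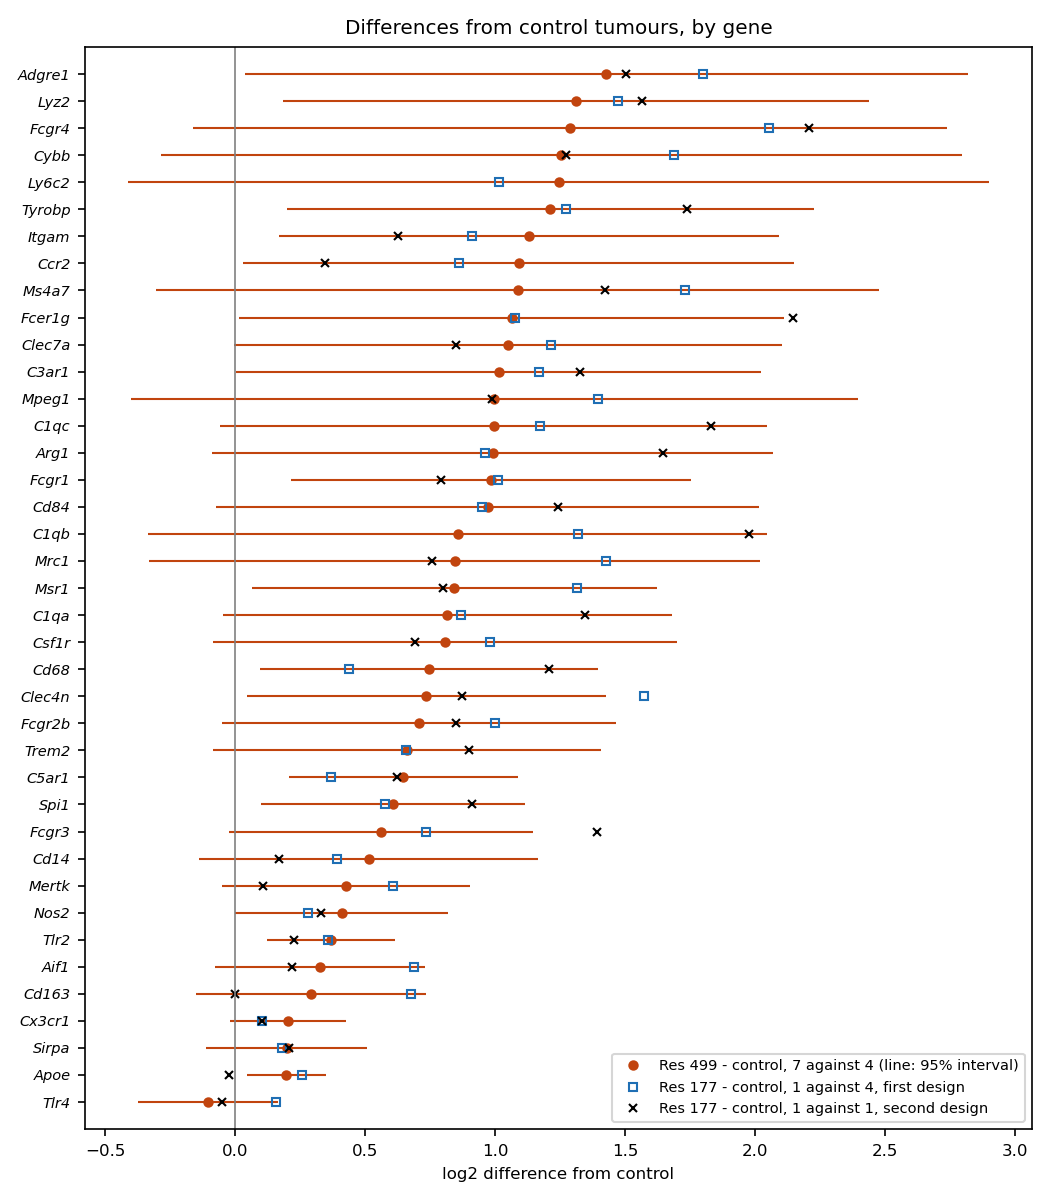
For each gene the filled circle and line give the log2 difference of 7 Res 499 from 4 control tumours with its 95% interval (not adjusted for the number of genes), the open square the Res 177 tumour of the first design minus the same controls, and the cross the Res 177 minus the control tumour of the second design, with no error. Adgre1, Lyz2 and Fcgr4 lead the Res 499 order, and Cx3cr1, Sirpa, Apoe and Tlr4 lie at most 0.26 from 0 in the 3 comparisons.

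On the second design, a separate pair of tumours gave a similar picture without replicates, so no test was made. Of 38 genes, 35 were higher in the Res 177 than in the control tumour, against 58.9% of all 15034 genes compared, and 15 were over 2-fold higher, against 1.04%. Their median difference was 0.86 and that of all genes 0.04. Fcgr4 was at 6.03 in the control and 8.23 in the Res 177 tumour, Fcer1g at 8.63 and 10.78, C1qb at 9.33 and 11.31, and Tyrobp at 7.31 and 9.05. Adgre1 was at 6.48 and 7.98, and Arg1 at 5.54 and 7.19. The differences of Tlr4 (-0.05), Apoe (-0.02), Cx3cr1 (0.10) and Mertk (0.11) were small, and Cd163 was at 5.38 in both tumours. Ccr2 and Itgam, with 1.09 and 1.13 in Res 499, differed here by 0.35 and 0.63. Across the 38 genes the second-design differences had a Pearson correlation of 0.76 (Spearman 0.75) with the Res 499 differences of the first design, which share no tumour with them. With the Res 177 differences of the first design, the same line in another tumour, the correlation was 0.70 (Spearman 0.71). The genes are not independent replicates.

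General leukocyte genes moved with the macrophage genes. The mean of Ptprc, Cd53, Coro1a, Laptm5 and Lcp1 lay 1.28, 1.59, 1.58 and 1.23 above the control mean in Res 499 replicates 1, 2, 3 and 5. It lay at 0.30, 0.28 and -0.30 in replicates 4, 6 and 7, and at 1.0 in Res 177 replicate 2. Ptprc, the common leukocyte antigen CD45, differed by 1.16 (SE 0.52, adjusted p = 0.369) in Res 499. With this mean as a covariate, 17 of 39 genes had positive differences in Res 499, against 53.4% of all genes, and their median was -0.04. By limma 0 of 39 passed the test, against 0.144% of all genes (0.108% higher and 0.0361% lower). At an unadjusted p under 0.05, 2 of 39 were lower, a share near the 5.22% of all genes, and 0 were higher, against 6.08%. The 2 genes were Mpeg1 at -0.58 (SE 0.23, limma adjusted p = 0.352) and Cybb at -0.51 (SE 0.21, adjusted p = 0.372). Arg1 had the largest positive value, 0.38 (SE 0.55). The covariate comes from the same arrays, and macrophages express these 5 genes too.

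**Figure D5:**
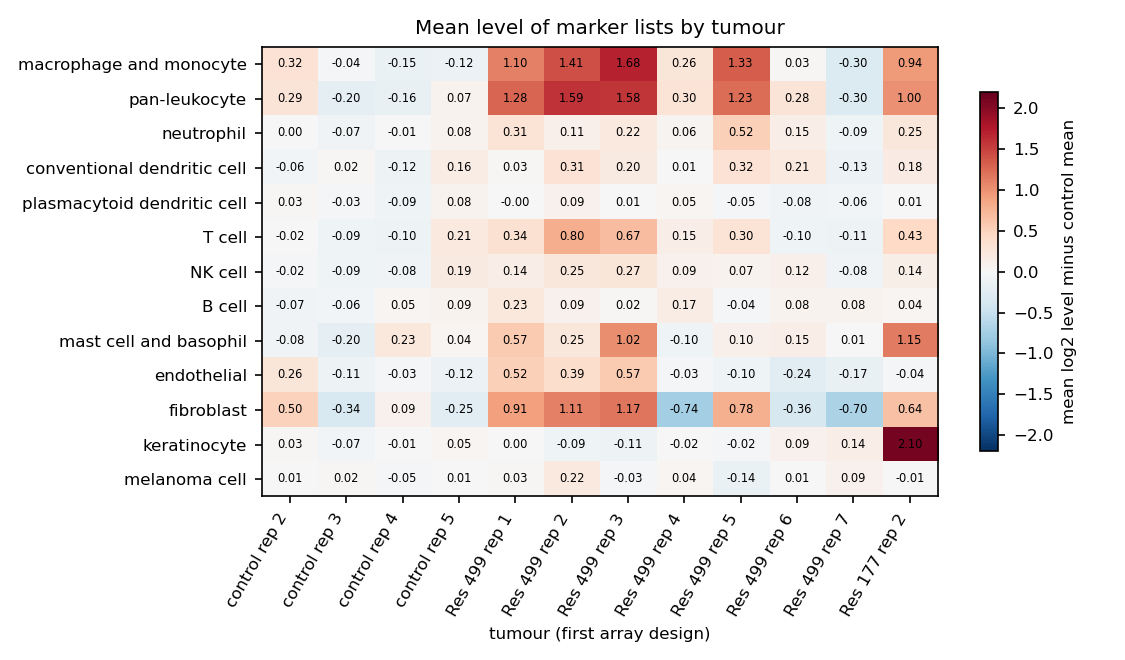
Colours and printed numbers give the mean log2 level of each marker list minus its control mean, for the 12 tumours of the first design. The macrophage and monocyte row and the pan-leukocyte row run together. Among Res 499 tumours the fibroblast and T cell rows are highest in replicates 1, 2, 3 and 5 as well. The keratinocyte row is high in the Res 177 tumour.

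Markers of other cells were set beside the macrophage values tumour by tumour. The fibroblast list (9 genes tested, 7 positive, median difference 0.28) ran from -0.74 to 1.17 by tumour in Res 499 and from -0.34 to 0.50 in controls, and it was high in the same replicates 1, 2, 3 and 5. Endothelial markers (8 tested, 7 positive, median 0.15) ran from -0.24 to 0.57 in Res 499 and from -0.12 to 0.26 in controls. T cell markers (8 tested, 8 positive, median 0.22) ran from -0.11 to 0.80 in Res 499 and from -0.10 to 0.21 in controls. They too were highest in Res 499 replicates 1, 2, 3 and 5, at 0.34, 0.80, 0.67 and 0.30. Replicates 4, 6 and 7 were at 0.15, -0.10 and -0.11. Neutrophil markers (6 tested, 6 positive, median 0.11) ran from -0.09 to 0.52 in Res 499 and from -0.07 to 0.08 in controls. The 3 tested mast cell and basophil markers (median 0.21) were highest in the Res 177 tumour, at 1.15, and in Res 499 replicate 3, at 1.02. The other 5 of the 8 genes on this list were too dim to be tested. Of the tested ones, Cpa3 had a control mean of 4.78, under the dim-gene level of 4.94. It passed that filter only through resistant tumours, and it differed by 2.59 in the Res 177 tumour. Of 12 neutrophil genes 6, S100a8 among them, were among the dimmest 25% of genes and were not tested. Conventional dendritic cell markers had a median of 0.18, NK cell markers 0.13 and B cell markers 0.05, with Flt3 at 0.18, the T cell gene Cd3e at 0.33 and the B cell gene Cd79a at 0.07. Melanoma markers had a median of 0.03 and ran from -0.14 to 0.22 in Res 499, with Tyr, the pigment enzyme tyrosinase, at 11.45 ± 0.25 (SD, n = 4) in controls and 11.40 ± 0.32 (SD, n = 7) in Res 499. No gene of these lists passed the test in Res 499, and the part of these cells in the macrophage differences was not tested.

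Genes that attract and feed macrophages were described in separate lists. Of 11 tested monocyte-attracting chemokines 0 passed the test and 11 had positive differences, with a median of 1.0. Their mean ran from -0.32 to 1.52 by tumour in Res 499 and from -0.33 to 0.26 in controls. Ccl2, the main ligand of CCR2, differed by 1.0 (SE 0.39, adjusted p = 0.292), Ccl7 by 1.26 (SE 0.41, adjusted p = 0.207) and Ccl6 by 1.58 (SE 0.62, adjusted p = 0.299). The macrophage growth factor Csf1 was at 7.0 ± 0.12 (SD, n = 4) in controls and 7.32 ± 0.46 (SD, n = 7) in Res 499 (difference 0.32, SE 0.21, adjusted p = 0.559). The other CSF1 receptor ligand, Il34, differed by -0.02 (SE 0.08). The list of growth factors and receptors had 0 of 8 genes called and a median of 0.13.

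Among partners of the members in their pathways, 0 genes of the lists in this paragraph passed the test. Of 11 Fc and ITAM signalling genes 0 passed and 10 were positive (median 0.36), with the kinase gene Syk at 0.29 (SE 0.20). All 4 tested NADPH oxidase partners of Cybb were positive (median 0.40, 0 called), among them Cyba at 0.43 (SE 0.13, adjusted p = 0.196). Toll-like receptor partners and sensors had a median of 0.23 (12 of 12 positive, 0 called), with the TLR4 partner Ly96 at 0.25 (SE 0.12). Inflammatory activation genes had a median of 0.38 (11 of 11 positive, 0 called), and genes of alternative activation and resident macrophages 0.40 (12 of 15 positive, 0 called). In that last list the values ran from -0.13 to 1.71, the highest being Retnla, a secreted protein of alternatively activated macrophages (SE 0.76, adjusted p = 0.361). Retnla had a control mean of 4.43, under the dim-gene level of 4.94, and passed that filter only through Res 499 tumours. Mgl2 of the same list (control mean 4.91) and Il1b of the inflammatory list (control mean 4.62) were also under that level. They passed only through resistant tumours, so the positive signs of these genes, counted above, were favoured by the filter. In the alternative activation list Pf4 was at 1.06 (SE 0.31, limma adjusted p = 0.167). Stab1 differed by 0.36 (SE 0.26) and Chil3 by -0.05 (SE 0.21), and Il10 was too dim to be tested. Complement genes other than C1q had a median of 0.18 (8 of 10 positive, 0 called). Myeloid transcription factors had a median of 0.12 (8 of 11 positive, 0 called), with Irf8 at 0.77 (SE 0.45) and Cebpa at 0.39 (SE 0.25). The smallest adjusted p-values in that list belonged to genes with negative differences, Nr4a1 and Klf4. By limma Nr4a1 was at -0.58 (SE 0.15, adjusted p = 0.126) and Klf4 at -0.41 (SE 0.11, adjusted p = 0.135). For each, 0 of 7 Res 499 tumours were above every control. The list also holds Mitf, at 0.02, which is among the melanoma markers too. Control means were 11.99 for Mitf and 11.44 for Nr4a1, and which cells their RNA came from was not tested. Engulfment ligands and bridging factors had a median of 0.10 (7 of 9 positive, 0 called), with Cd47, the ligand of SIRPA, at 0.10 (SE 0.11) and Gas6, the bridge to MERTK, at 0.47 (SE 0.36).

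Lysosomal proteases and hydrolases gave the single call among these pathway lists. Ctsd, the aspartic protease cathepsin D, rose by 0.35 (SE 0.07, limma adjusted p = 0.0482). This is just under the threshold of 0.05, and the call was not followed under other settings. Over all genes, the 59 calls of this comparison became 6 without control replicate 4 and 356 with array weights. Ctsd was at 12.17 ± 0.03 (SD, n = 4) in controls and 12.52 ± 0.10 (SD, n = 7) in Res 499. All 7 Res 499 tumours were above every control, as for 1.23% of all genes tested. Of 12 tested genes in this list 1 rose and 0 fell, against 0.144% and 0.210% of all genes. In this list 11 were positive, against 51.7% of all genes, with a median of 0.30. Ctss, the cathepsin of antigen-presenting cells, had a larger but much more scattered difference of 1.10 (SE 0.74, adjusted p = 0.577).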

How the data were processed

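Arrays of 2 Affymetrix designs were used for total RNA of 14 tumours, 12 on the first and 2 on the second. The deposited values are log2 expression values made by the authors, and the submitters' processing notes name RMA and oligo. The values themselves show a log2 scale. Software versions, the genome build and filters: not given in the sources used here. The designs were normalized separately and never pooled. Medians of the first 12 arrays lay between 5.70 and 5.80, and arrays carry no read depth, so their number limits the precision.

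Probe sets with 1 gene symbol in the platform annotation were used, and the one with the highest mean per gene; each member had 1. Genes in the lowest 25% by mean (log2 level up to 4.94) were left out, which left 16635. The test was limma 3.58.1 (R 4.3.3; lmFit, then eBayes) in 1 fit of 3 groups, with Benjamini-Hochberg adjustment and a threshold of 0.05. A fit with a pan-leukocyte covariate and a fit of resistant (8) against sensitive (4) tumours were made as well. The script was tested on simulated data. The second design has 1 tumour per group and no test, and 1515 of its 35556 probe sets have the same value in both tumours. Members, lists, tests and the rule for named genes (all members, a fixed set from each list and called list genes, and the genes most and least like the member mean) were chosen with earlier results of these data known. Other genes named were picked after their values were seen. Erythrocyte markers were not analysed here.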

Additional observations from a re-analysis of the deposited data

Results flagged for a closer look

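In 78 groups of tumours examined (39 genes in control and in Res 499), 7 had a tumour whose gap to the next exceeded Dixon's 95% limit, and chance alone flags about 5% of groups. Of these, 3 concern Res 499 replicate 5: Arg1 at 9.90 with the next tumour at 7.94, Cd14 at 7.71 with the next at 6.34, and Sirpa at 9.31 with the next at 9.87. That tumour was also the highest of the 12 for 16.9% of all genes tested and the lowest for 16.0%, so such extremes were not particular to these genes. Control replicate 2 was high for Adgre1, at 7.28 with the next at 6.57, and for Ccr2, at 5.76 with the next at 5.33. Control replicate 3 was low for Spi1, at 5.98 with the next at 6.29, and for Cd14, at 5.46 with the next at 5.83.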

How the results depend on the processing

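The number of members called stayed 0 in Res 499 against control under 11 other settings (filter on dim genes, probe set, normalization, prior, array weights, threshold, groups in the fit) and in 12 fits that each left out 1 tumour. It was also 0 in every such fit of Res 177 against control, of Res 499 against Res 177, with the leukocyte covariate, and of resistant against sensitive tumours. In the main fit of that last comparison, by limma, 22 of 39 genes had an unadjusted p under 0.05, all higher. Of all genes 7.11% were higher and 6.26% lower at that threshold, and this count was not followed under the other settings. The median member difference in Res 499 ran from 0.72 (array weights) to 0.85 over the settings, and from 0.64 without Res 499 replicate 3 to 1.05 without Res 499 replicate 7. The smallest adjusted p of a member was 0.0966 in the fit without Res 499 replicate 7. The median in Res 177 ran from 0.87 to 1.08 and that of the second design from 0.85 to 0.95. With the leukocyte covariate the median ran from -0.09 to 0.07 and so had no stable sign, also with Ptprc alone as the covariate, an alternative chosen after seeing the data (0.07). With the lowest 50% of genes left out, 32 of the 39 genes were still tested. None of the 39 genes changed sign in Res 499 under any setting run. No paired analysis was possible because the labels do not link tumours of different groups.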

Other observations

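The 10 genes outside the list whose levels were most like the mean of the 39 genes over the 12 tumours were, in descending order of Pearson's r, Lpxn (0.98), an adhesion adaptor of leukocytes, Folr2 (0.98), a folate receptor of resident macrophages, the nucleotide receptor P2ry6 (0.98), Tlr13 (0.98), a sensor of bacterial RNA, Tgfbi (0.98), the NADPH oxidase subunit Ncf1 (0.98), Ctss (0.98), Nckap1l (0.98), an actin regulator of blood cells, Adap2 (0.98) and Plek (0.98), the protein kinase C substrate pleckstrin. Tgfbi differed by 1.16 (SE 0.58, adjusted p = 0.421 by limma) in Res 499 and Tlr13 by 1.02 (SE 0.55, adjusted p = 0.465). Those least like it were Scpep1os (-0.89), the histone demethylase gene Kdm3a (-0.88), Ppp1r14d (-0.88), Gramd1a (-0.88) and Cnot7 (-0.87), a subunit of the deadenylase complex. These r values describe 12 tumours that split widely in leukocyte RNA, and they were picked as the extremes of 16596 other genes. Among the 39 genes, 27 had an r of at least 0.9 with the mean of the other members, and the lowest were Tlr4 (0.01) and Sirpa (0.18).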
